A study of Rattus norvegicus with 8 samples.

Results

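The loci described here are stretches of the rat genome that gave RNA in the small intestine but carry no gene name in the deposited gene table. The table holds 52753 loci, and 19524 of those outside chromosomes MT, X and Y have a dash in place of a symbol. Of these unnamed loci, 2481 (12.7%) were kept because at least 10 fragments had been assigned to them in at least 4 of the 8 libraries. The loci were thus selected on their fragment counts. They make up 4.7% of all loci in the table, and all of them lie on the 20 numbered chromosomes. The libraries are 4 from rats with cystic fibrosis (CF) and 4 from wild-type (WT) rats, all Sprague Dawley at postnatal day 21, made from mRNA of the small intestine over its whole length and sequenced with strand information. CF is the inherited disease caused by loss of CFTR, a channel for chloride and bicarbonate in the membrane of epithelial cells. The labels give no CF allele, sex, litter or batch, and nothing in them ties a library to an animal of its own. The p-values therefore measure the spread between these libraries, which may be technical. Libraries are numbered 0 to 3 within each group, and these numbers are names only.

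Software that assembles transcripts from aligned reads joins fragments into a locus whether or not a gene is annotated there. An unnamed locus can therefore be a long noncoding RNA, a transcript antisense to a gene, an unannotated end of a neighbouring gene, a retained intron, a processed pseudogene or a protein-coding gene that the annotation lacks. Many long noncoding RNAs are spliced and carry a poly(A) tail, so that they appear in mRNA libraries, usually at lower levels than protein-coding genes. Which of these kinds a given locus belongs to was not tested, because the table gives neither strand nor exon structure. Coordinates are given in the build Rnor_6.0, and no sequence of the loci themselves is shown because a genome of that build was not used here.

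One class of RNA with a known sequence lies beside some of these loci. MicroRNAs are short RNAs that pair with target mRNAs through their seed, and they are cut out of much longer primary transcripts that carry a poly(A) tail. For 21 unnamed loci the nearest named locus held a miRNA symbol, and 14 of these lay within 10000 bases of it. The 15 different miRNA symbols included 12 with a mature sequence in the RefSeq table of build GRCr8. The sequences below are those of miRNA loci within 10000 bases of an unnamed locus where the named locus held that symbol alone, and they show which mature products those positions encode. They are written 5′ to 3′ with the seed, bases 2 to 8, in capitals.
rno-miR-1b: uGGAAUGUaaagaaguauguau
rno-miR-183-5p: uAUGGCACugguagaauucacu
rno-miR-183-3p: uGAAUUACcgaagggccauaa
rno-miR-568: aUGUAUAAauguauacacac
rno-miR-3557-5p: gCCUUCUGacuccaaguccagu
rno-miR-3557-3p: aCACAGGAccuggagucaggag
rno-miR-3561-5p: aCUGUGUCaauccaggguaga
rno-miR-3561-3p: uAUCCAGGguagacacucaga

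None of these sequences shared its seed with another of them, and the seed of rno-miR-1b occurred in 3 mature miRNAs of the RefSeq table. The libraries do not measure mature miRNAs, so all values that follow are those of the neighbouring long transcripts. The locus XLOC_010186 (chr11:61996179-62008841) lay 57 bases from Mir568, and its levels in CPM (counts per 1e6 fragments, scaled between libraries) were 12.9, 12.1, 20.6 and 17.7 in CF libraries 0 to 3 and 32.3, 29.3, 21.0 and 14.8 in WT libraries 0 to 3. WT library 3 fell among the CF libraries, so the groups overlapped. The log2 fold change, CF over WT, was −0.62 with a standard error (SE) of 0.26 and an adjusted p of 0.296, where each adjusted p, unless another tool is named, comes from the quasi-likelihood test of edgeR, with the Benjamini-Hochberg adjustment made over 16941 loci. The nearest expressed gene was Zbtb20, a transcriptional repressor of the BTB zinc finger family, which lay 6084 bases away and had a log2 fold change of −0.34.

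XLOC_044100 (chr7:109270583-109275191), 7467 bases from Mir30b, was at 7.71, 6.54, 6.60 and 7.58 CPM in CF and at 7.97, 9.98, 9.13 and 8.81 CPM in WT. The CF libraries all lay below the WT libraries in CPM, by a small margin, and the adjusted p was 0.292 (log2 fold change −0.34, SE 0.14). In FPKM, which also divides by transcript length, the groups overlapped, at 1.56 to 2.57 in CF and 1.92 to 3.31 in WT. XLOC_021749 (chr18:56619709-56626465), 247 bases from Mir3557, was one of the steadiest, at 40.7 ± 3.86 CPM in CF against 43.4 ± 2.96 CPM in WT (SD, n = 4). The locus beside Mir1b, XLOC_032088, was at 2.16 ± 0.490 and 2.60 ± 0.981 CPM, and the locus beside Mir183, XLOC_035727, at 0.611 ± 0.181 and 0.551 ± 0.211 CPM. Of the 20 miRNA-adjacent loci that could be tested, 2 had an unadjusted p under 0.05, where 15.1% of all loci did, and none passed the adjusted test. Their log2 fold changes ran from −0.62 to 0.41 with a median of 0.02.

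Most of the unnamed loci were weakly expressed. Levels are given here as FPKM, which scales fragments by transcript length and library size, where genes are compared with each other, and as CPM where libraries are compared. The median over the 2481 loci was 0.863 FPKM, against 7.32 FPKM over the 13923 named loci that met the same count rule. In CPM, which counts fragments without regard to length, the medians were 1.21 and 21.4, and 41.2% of the unnamed loci had a mean under 1 CPM against 5.98% of the named ones. Because the count rule chose the loci by their fragments, these levels are a description with no test. At the edge of the rule, the 299 loci with 10 fragments in exactly 4 libraries had a median of 10.1 fragments per library (range 6.62 to 105), and the 404 unnamed loci just outside it, with 10 fragments in exactly 3 libraries, had a median of 8.75 (range 5.38 to 101). A further 200 unnamed loci had no fragment in any library. The level was high in a minority: 175 unnamed loci reached a mean of 10 CPM, 16 reached 100 CPM, and the 10 largest held 17.8% of all fragments assigned to the unnamed loci.

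The libraries held 15.3 to 20.9 M assigned fragments, and between 0.994% and 1.17% of these fell in the expressed unnamed loci. The share was 1.04% ± 0.049 in CF (SD, n = 4; 0.994% to 1.09%) and 1.13% ± 0.061 in WT (1.04% to 1.17%). WT library 3 lay inside the CF range, and the other WT libraries lay above it. In each library between 2462 and 2476 of the 2481 loci had at least 1 fragment.

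The unnamed loci were short and had simple starts. The span of a locus in this table is that of the whole bundle of overlapping transcripts, so it was read only for loci alone in their span, which were 1770 (71.3%) of the 2481. These had a median span of 1668 bases (range 205 to 219499), against 21575 bases for named loci alone in their span. A single start site was given for 2205 (88.9%) of the unnamed loci and for 47.7% of the named ones. Of the others, 376 (15.2%) shared their span with a named locus and 335 (13.5%) with other unnamed loci only. Among the widest spans, those of 808227 bases for XLOC_034669 and 637407 bases for XLOC_010308 were bundles with named loci (Exoc4 and Lpp among them) and do not measure the unnamed transcript.

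The locus with the highest FPKM was XLOC_038259 (chr5:138042656-138043128), 473 bases long and alone in its span. It was at 451 ± 52.4 FPKM in CF and 451 ± 112 FPKM in WT, and its log2 fold change was 0.04 (SE 0.13, adjusted p 0.91). The nearest named locus, 13027 bases away, was a SNORA17 entry that was listed at 0 in every library. SNORA17 is a small nucleolar RNA, a kind that guides modification of ribosomal RNA, and the annotation places copies of it at many sites. A second short locus, XLOC_042562 (chr7:11012841-11013372), lay 309 bases from Aes, which encodes a corepressor of the Groucho family. It was at 222 ± 62.4 FPKM in CF and 220 ± 44.5 FPKM in WT, and Aes had a mean of 241 FPKM. Neither locus differed between the groups beyond the spread, with log2 fold changes of 0.03 (SE 0.15) for XLOC_042562 and 0.02 (SE 0.18) for Aes.

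Some of the next ranks rest on length. XLOC_032659 (chr3:102594667-102594882, 216 bases) and XLOC_013838 (chr13:14315710-14316023, 314 bases) had 88.8 and 104 FPKM in CF but only 6.30 and 17.6 CPM. FPKM divides by transcript length, which raises short loci with few fragments. XLOC_049147, which shares its span with the locus of Prickle4 and Tomm6, was at 149 ± 59.8 FPKM in CF and 110 ± 19.9 FPKM in WT.

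The locus with the most fragments was XLOC_011568, in a span of 18 loci (chr12:22535638-22832112) that includes 14 named ones. RefSeq places the Muc3 genes, which encode membrane mucins of the intestinal brush border, and Cldn15 and Fis1 between the named genes on its sides. That order gives the locus no name. It was at 556, 458, 283 and 771 CPM in CF and at 298, 449, 420 and 346 CPM in WT. The groups overlapped, since CF library 2 was below every WT library while CF libraries 0, 1 and 3 were above them, and the log2 fold change was 0.45 (SE 0.27, adjusted p 0.462). XLOC_006859, 22043 bases from Pirt, followed with 216 ± 44.9 CPM in CF against 234 ± 53.2 CPM in WT. XLOC_025079 was at 244 ± 30.6 and 199 ± 7.63 CPM. XLOC_037380 lay 82 bases from Hspg2, the gene of the basement membrane proteoglycan perlecan, and averaged 202 ± 33.1 CPM in the CF libraries and 170 ± 29.3 CPM in those of WT. In FPKM it was at 20.9 ± 7.60 and 18.2 ± 4.53, and Hspg2 had a mean of 5.72 FPKM. None of these 3 passed the adjusted test (adjusted p 0.807, 0.277 and 0.493).

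Most expressed unnamed loci lay close to a named one. The median distance to the nearest named locus was 2683 bases, with 376 loci at 0, 569 at 1 to 1000 bases, 871 from there to 10000, 555 from there to 100000 and 110 (4.43%) beyond. Over all loci, named ones lay closer still, with a median of 1164 bases to another named locus. A locus that shares its span with a named one counts as 0 here. Among loci alone in their span the order was the reverse, with medians of 3915 bases for unnamed and 5355 bases for named loci. At 0, where spans overlap, lay 15.2% of the expressed unnamed loci, 10.6% of the 17043 unnamed loci below the count rule and 34.1% of the named loci. Within 1000 bases without overlap these shares were 22.9%, 11.9% and 14.9%. The median FPKM was 0.990 in that class, 0.723 in the next class, up to 10000 bases, and 1.70 beyond 100000 bases. The farthest were XLOC_015557 (chr14:98756472-98758109, 737724 bases), XLOC_041681 (chr6:17030398-17031055, 727710 bases) and XLOC_013910 (chr13:28919857-28920242, 690816 bases). The last of these was at 33.3 ± 2.48 FPKM in CF and 27.7 ± 5.55 FPKM in WT, with an adjusted p of 0.69.

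The order of genes was also read from newer gene models. For 2126 of the 2481 loci a named gene on each side matched a single symbol in the RefSeq table of GRCr8, on the same chromosome. Neighbours without such a match, and small RNAs, were passed over for a named locus farther out. Between the matched genes the newer table lists no gene for 309 loci, 1 to 3 genes for 875 and more than 3 for 942. These counts include genes that the deposited table names at loci of their own. They can also include neighbours that were passed over, as S100a13 was for XLOC_025009. For XLOC_025079, between Ensa and Adamtsl4, the single gene listed is Mcl1, which encodes an antiapoptotic protein. For XLOC_037380, between Hspg2 and Ldlrad2, none is listed. Positions of the 2 builds were not aligned, so a gene listed between the same neighbours is not shown to be the unnamed locus.

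**Figure D1:**
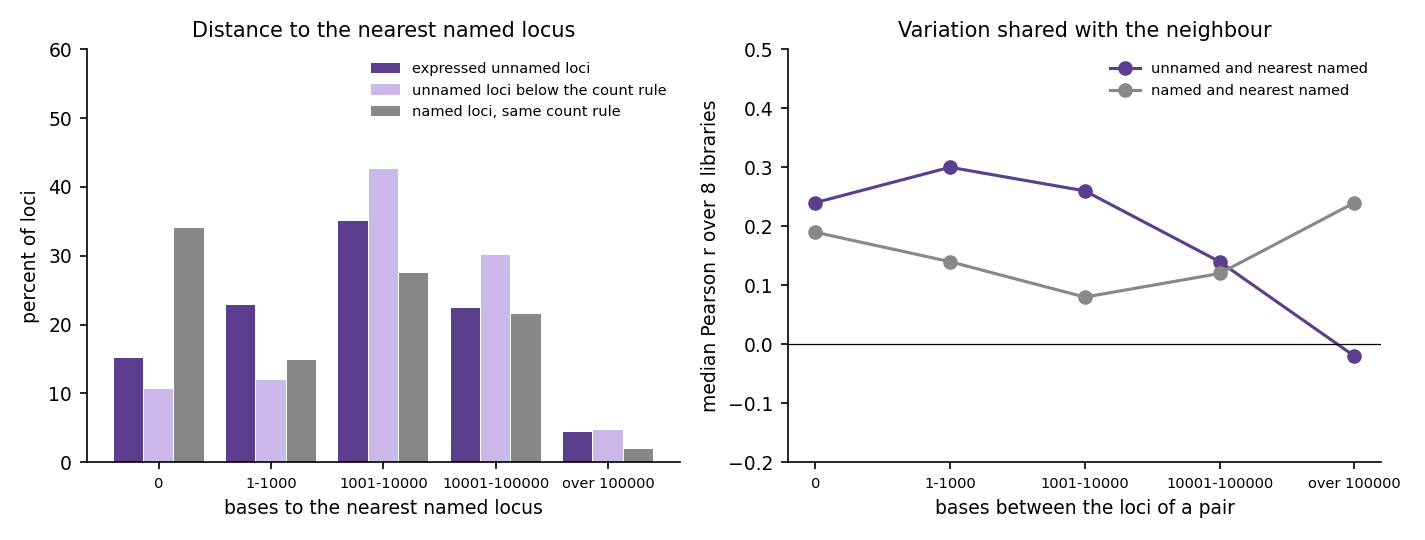
Left, percent of loci (y axis) by bases to the nearest named locus (x axis), for expressed unnamed loci (22.9% at 1-1000 bases), unnamed loci below the count rule (11.9%) and named loci under the same rule (14.9%). Right, median over pairs of the Pearson correlation of log2 CPM over 8 libraries after the group means were removed (y axis), by distance between the loci of a pair (x axis), for unnamed loci with their nearest named locus (0.30 at 1-1000 bases, −0.02 beyond 100000) and for named loci with theirs (0.14 and 0.24).

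The unnamed loci varied with their neighbours to a modest degree. After the group means were removed, the correlation of log2 CPM over the 8 libraries between an unnamed locus and its nearest named locus had a median of 0.24 for pairs that overlap, 0.30 at 1 to 1000 bases, 0.26 up to 10000, 0.14 up to 100000 and −0.02 beyond. Between named loci and their nearest named neighbours the medians were 0.19, 0.14, 0.08, 0.12 and 0.24, the last over 85 pairs. With only expressed neighbours counted, the unnamed loci gave 0.22, 0.30, 0.26, 0.15 and 0.05. The log2 fold changes of unnamed loci and neighbours correlated across pairs with r of 0.33, 0.40, 0.33, 0.24 and 0.26 over 302, 478, 612, 297 and 38 pairs. With expressed neighbours only, r was 0.32, 0.40, 0.32, 0.12 and 0.00, the last over 258 pairs, and between named loci it was 0.32, 0.16, 0.14, 0.07 and 0.09. These are descriptions across loci that share libraries and depth, and where the loci lie close they may share fragments. The unnamed partner had fewer fragments, with a median CPM, not corrected for length, of 0.055 times its neighbour's at 1 to 1000 bases.

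The comparison of CF with WT asks which of these transcripts differ in the CF intestine. Of the 2481 loci, 2401 could be tested, and the other 80 had means of 0.397 to 0.773 CPM. A total of 4 unnamed loci passed the test, 1 higher and 3 lower in CF, which is 0.167% of those tested against 0.165% of all 16941 loci. In the higher direction the share of all loci was 0.136% and in the lower direction 0.0295%. At an unadjusted p under 0.05 there were 83 higher and 190 lower unnamed loci (11.4%), against 15.1% of all loci (7.94% higher and 7.21% lower). The count rule looks at unscaled fragments in any 4 libraries. It was met in all CF and no WT libraries by 6 loci and in all WT and no CF libraries by 5. For those 11 the groups could not overlap in fragments. XLOC_021157, among the 4 that passed, had 5 to 12 fragments in CF and 20 to 45 in WT. Its WT libraries alone met the rule. With DESeq2 in place of edgeR 40 unnamed loci passed, and with no filter on low counts in edgeR 35 passed. Both sets include these 4, and the shares of all loci were then 1.41% and 1.38%. With library totals in place of TMM only 1 passed, and none passed without WT library 1, 2 or 3.

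XLOC_025009 rose in CF. It is a 658-base locus alone in its span (chr2:189916501-189917158), 3985 bases from S100a13, in a stretch of S100 genes, which encode small calcium-binding proteins. It was at 21.3, 19.7, 18.7 and 25.8 CPM in CF and at 12.1, 12.5, 11.0 and 11.5 CPM in WT. Every CF library lay above every WT library in CPM, with a wider spread in CF. In log2 terms the change was 0.86 (SE 0.13, adjusted p 0.0339). In FPKM the groups overlapped, at 20.4 to 39.4 in CF and 10.4 to 23.3 in WT. S100a13 averaged 19.4 ± 4.15 CPM in the CF libraries and 16.4 ± 1.04 CPM in those of WT, which gave 0.24 on the log2 scale (SE 0.16, adjusted p 0.492). The named genes on the outer sides are Chtop and S100a16, and RefSeq lists S100a1, S100a13 and S100a14 between them in GRCr8, of which S100a14 is not a name in the deposited table. That order does not identify the locus. The call was lost without CF library 3 and without any 1 of the WT libraries, where the log2 fold change was between 0.76 and 0.92 over all libraries left out singly.

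XLOC_033648 fell in CF. It has 3 start sites in a span of 7369 bases (chr4:67579661-67587029), between Braf, a kinase of the MAP kinase pathway, and Mrps33, a protein of the mitochondrial ribosome, which is 20234 bases away. It was at 13.6, 13.5, 17.7 and 10.4 CPM in CF and at 30.4, 46.1, 32.2 and 40.5 CPM in WT. The highest CF library was well below the lowest WT library. On the log2 scale CF over WT was −1.43 (SE 0.18, adjusted p 0.0132), while that of Mrps33 was −0.19 (SE 0.12, adjusted p 0.494). The adjusted p was 0.0814, 0.0655 and 0.0733 without WT libraries 1, 2 and 3, and the call held without any other single library.

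XLOC_028846 (chr20:18374853-18381347) also fell, and it had the tightest libraries of the 4. It was at 3.33, 3.44, 2.93 and 3.24 CPM in CF and at 6.33, 6.17, 6.05 and 6.28 CPM in WT. Both groups lay within narrow ranges that were far from each other. Its log2 fold change was −0.94 (SE 0.15, adjusted p 0.0486). The nearest expressed gene, 75960 bases away, was Ipmk, an inositol phosphate kinase, with a log2 fold change of 0.20. The adjusted p was above 0.05 when any 1 library other than CF library 0 was left out.

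XLOC_021157 was the weakest of the 4 in level and had the largest fall. Its span holds 11 loci (chr17:43567528-43609700), among them Slc17a2, a member of the sodium and phosphate transporter family, near a cluster of histone genes. It was at 0.434, 0.677, 0.266 and 0.349 CPM in CF and at 2.74, 1.86, 2.0 and 1.37 CPM in WT. The groups stood apart, and the fitted value was −2.20 on the log2 scale (SE 0.35, adjusted p 0.0457). Slc17a2 averaged 3.95 ± 2.22 CPM in the CF libraries and 14.0 ± 4.33 CPM in those of WT, and its log2 fold change of −1.82 (SE 0.43) did not pass (adjusted p 0.118). Of the other unnamed loci in the span, XLOC_021153 was at 0.0532 to 1.02 CPM in CF against 1.12 to 1.57 CPM in WT, without overlap (log2 fold change −1.92, SE 0.62, adjusted p 0.204). XLOC_021152 and XLOC_021156 overlapped between the groups, with log2 fold changes of −0.94 (SE 0.57) and −1.07 (SE 0.48). Loci of 1 span can share fragments, so these are not treated as independent. The unnamed ones given here had whole counts in every library, and sharing was not tested. The call of XLOC_021157 was lost without CF library 2 or 3 and without any 1 of the WT libraries.

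**Figure D2:**
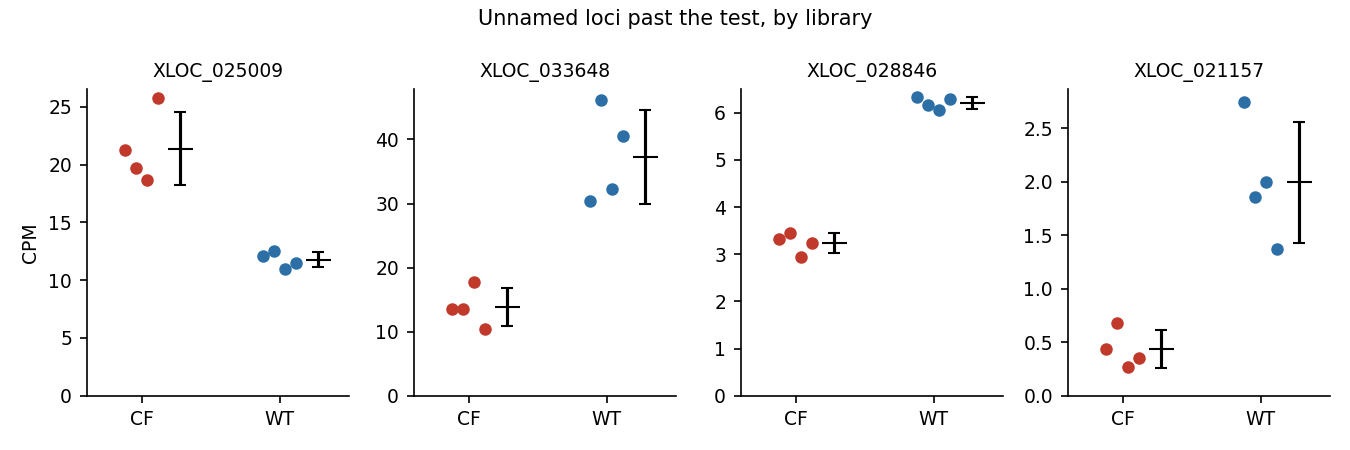
CPM in each library (y axis, points from left to right are libraries 0 to 3) of the 4 unnamed loci past the test, for CF in red and WT in blue, with black bars for mean ± SD (n = 4). XLOC_025009 lies higher in CF (18.7 to 25.8 CPM against 11.0 to 12.5), and the other 3 lie lower in CF.

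Levels of bulk RNA cannot tell fewer cells of a type from less RNA per cell, and markers of several cell types moved with the groups. A score, the mean of a list's log2 CPM after each gene's own mean was subtracted, was lower in every CF library for the 4 tested of 7 red cell markers (−1.41 to −0.05 in CF, 0.38 to 0.80 in WT). It was higher in every CF library for the 6 tested of 8 smooth muscle markers (0.04 to 0.39 against −0.56 to −0.03) and for the 8 tested of 10 goblet cell markers (0.25 to 0.57 against −0.99 to −0.04). With library totals in place of TMM the smooth muscle scores overlapped (−0.02 to 0.34 against −0.63 to 0.04), and the other lists named so far did not. Summed levels were 50.6 to 73.0 CPM in CF and 82.2 to 235 CPM in WT for red cells, 5680 to 7380 and 3770 to 5530 CPM for smooth muscle, and 5360 to 6930 and 3170 to 6260 CPM for goblet cells. The 11 matched enterocyte markers summed to between 8890 and 25900 CPM in all libraries, so markers of the labelled tissue were abundant throughout, and were lowest in CF library 0 (score −0.80). Scores of the other lists overlapped, and only Derl3 of the plasma cell list and Muc5ac of the stomach list were at 0 in all libraries. Exocrine pancreas markers, 7 of 8 matched, summed to between 0.205 and 121 CPM and were highest in CF library 2 and WT library 1. The part of these cell types in the changes of the unnamed loci was not tested.

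Larger differences than these were seen in loci that did not pass the adjusted test. In 88 unnamed loci with a mean of at least 1 CPM the groups did not overlap and the unadjusted p was under 0.05, 22 of them higher and 66 lower in CF. The same count was not made over all loci, so it served only to choose the loci described below. Over all tested unnamed loci the groups did not overlap for 38 (1.58%) higher and 125 (5.21%) lower, together 6.79%, against 8.77% of all loci (4.86% higher and 3.91% lower). Weak named loci also had more lower than higher ones. Under 1 CPM the shares were 1.38% higher and 4.25% lower for unnamed loci, and 2.27% and 4.19% for named loci. At 1 to 2 CPM they were 1.67% and 4.85%, against 2.55% and 5.92%. At 2 to 5 CPM they were 1.08% and 7.97%, against 2.54% and 5.5%.

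The highest values came from a span on chromosome 14 (chr14:22893882-22916213) that holds 7 unnamed loci and no named one. It lies between Ugt2b10, of the UDP-glucuronosyltransferases that conjugate bile acids, steroids and drugs, and Ythdc1, a reader of methylated RNA. The most abundant locus there, XLOC_015195, was at 15.3, 16, 11.0 and 43.2 CPM in CF and at 1.34, 5.47, 4.28 and 2.46 CPM in WT. XLOC_015196 was at 7.43, 6.54, 5.85 and 22.5 CPM in CF and at 1.52, 2.66, 1.91 and 2.25 CPM in WT. XLOC_015832 was at 2.46, 1.97, 1.65 and 7.93 CPM against 0.304, 0.903, 0.605 and 0.341 CPM. In all 3 the CF libraries lay above the WT libraries, and CF library 3 lay far above the other CF libraries. The log2 fold changes were 2.64 (SE 0.55), 2.34 (SE 0.46) and 2.66 (SE 0.59), with adjusted p-values of 0.101, 0.0809 and 0.10.

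Without CF library 3 the log2 fold changes of XLOC_015195, XLOC_015196 and XLOC_015832 were 2.04, 1.66 and 1.87, and XLOC_015196 then passed with an adjusted p of 0.0409. DESeq2 called all 3 with all libraries, with adjusted p-values of 0.00126, 7.8e-06 and 0.000386. Of the other loci in the span, XLOC_014575 did not overlap between the groups (log2 fold change 1.04, SE 0.32) and XLOC_015833 did, through WT library 0 at 4.14 CPM (1.85, SE 0.62). The nearest named locus, LOC100911104 at 2547 bases, averaged 6.09 ± 2.15 CPM in the CF libraries and 3.64 ± 0.316 CPM in those of WT, a difference of 0.74 on the log2 scale (SE 0.25, adjusted p 0.22). The loci of this span may share fragments and count as 1 observation rather than several. Counts of the unnamed loci given here were whole numbers in every library, and sharing was not tested.

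A pair of neighbours on chromosome 4 was also higher in CF. XLOC_035476 (chr4:182154421-182167405) was at 21.8, 10.9, 16.2 and 22.5 CPM in CF and at 1.40, 6.52, 7.26 and 7.58 CPM in WT. XLOC_036524 (chr4:182153374-182154062), which ends close to its start, was at 2.36, 0.846, 1.44 and 2.69 CPM against 0, 0.652, 0.373 and 0.205 CPM. The groups did not overlap in either, and WT library 0 was lowest in both. The log2 fold changes were 1.65 (SE 0.45, adjusted p 0.162) and 2.49 (SE 0.63, adjusted p 0.133). Their nearest named gene, Ccdc91, which encodes a coiled-coil protein, lay 109781 bases from the nearer of them and had a log2 fold change of 0.01 (SE 0.13). 

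Other high values lay at separate sites. XLOC_003906 (chr1:216844739-216859720) was at 12.2, 3.78, 4.42 and 6.93 CPM in CF and at 1.40, 2.41, 2.93 and 1.77 CPM in WT, without overlap (log2 fold change 1.67, SE 0.39, adjusted p 0.106). It lies between Tnfrsf26, a receptor of the TNF family, and Osbpl5, a lipid transfer protein 6525 bases away whose log2 fold change was −0.19. The gene RefSeq lists between them in GRCr8 is Tnfrsf22, which does not identify the locus. XLOC_046455 (chr8:122997078-123014745), 9887 bases from Gpd1l, a glycerol-3-phosphate dehydrogenase-like protein, was at 4.96, 18.4, 11.4 and 6.64 CPM against 3.29, 3.81, 0.0466 and 2.38 CPM. Its groups lay close at their edges, and the log2 fold change of 2.13 had an SE of 0.80 (adjusted p 0.278), against 0.43 (SE 0.14) for Gpd1l. XLOC_046455 shares its span with another unnamed locus and had fractional counts, so fragments may have been divided between them. Its WT library 2 held 1 fragment.

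The lowest values were mostly those of weak loci. XLOC_018104 (chr16:6640902-6647101), 6307 bases from Tkt, the transketolase of the pentose phosphate pathway, was at 1.25, 2.20, 2.02 and 0.648 CPM in CF and at 2.25, 4.47, 4.80 and 2.87 CPM in WT. Its log2 fold change was −1.24 (SE 0.38), while that of Tkt was 0.31 (SE 0.11). XLOC_033102, near Rprd1b, had −1.78 (SE 0.45), XLOC_014909 −1.58 (SE 0.38) and XLOC_037133, near Akr1a1, −1.37 (SE 0.30). In CPM the groups did not overlap in any of these, and their adjusted p-values were between 0.0919 and 0.188. In FPKM those of XLOC_018104 overlapped, at 0.157 to 0.896 in CF and 0.791 to 1.83 in WT.

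XLOC_020590 (chr17:54500312-54511570), between Arhgap12 and Zeb1, was the most abundant of the low set. It was at 2.22, 10.0, 13.7 and 6.73 CPM in CF and at 17.6, 19.3, 19.7 and 33.1 CPM in WT, with CF library 0 lowest and WT library 3 highest. Its log2 fold change was −1.46 (SE 0.47, adjusted p 0.224).

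XLOC_018510, chosen after its values were seen, lies in the alpha-defensin cluster of chromosome 16 (chr16:75540841-75544013), 10324 bases from the locus of Defa11 and RatNP-3b. Alpha-defensins are antimicrobial peptides that Paneth cells of the crypts and neutrophils store in granules. The locus was at 58.9, 77.1, 76.1 and 84.8 CPM in CF and at 92.8, 134, 146 and 168 CPM in WT. Every CF library lay below every WT library. The log2 fold change was −0.87 (SE 0.18, adjusted p 0.0806), and the defensin locus averaged 25.8 ± 9.43 CPM in the CF libraries and 82.6 ± 44.2 CPM in those of WT (log2 fold change −1.68, SE 0.50, adjusted p 0.202). Genes of this cluster have near-identical members, and fragments may have been shared between them. XLOC_018510 itself had whole counts in every library, and sharing was not tested.

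**Figure D3:**
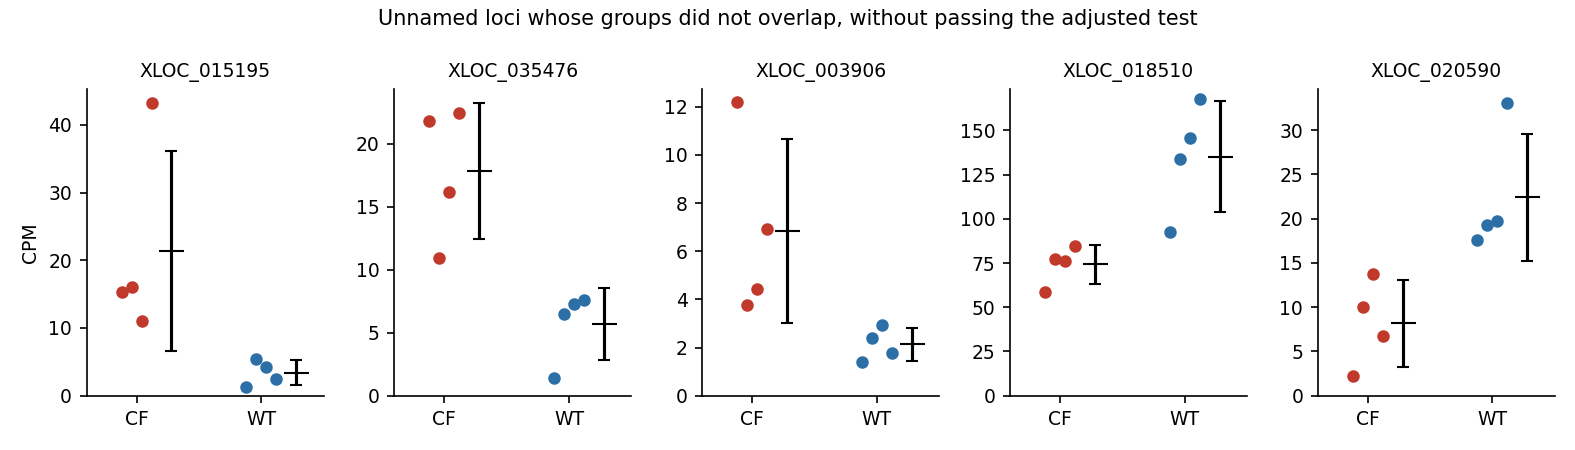
CPM in each library (y axis, points from left to right are libraries 0 to 3) of 5 unnamed loci whose groups did not overlap but which did not pass the adjusted test, CF in red and WT in blue, with mean ± SD (n = 4). The first 3 lie higher and the last 2 lower in CF, and CF library 3 of XLOC_015195 (43.2 CPM) and WT library 3 of XLOC_020590 (33.1 CPM) stand above the rest of their groups.

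As a whole the unnamed loci had a median slightly below 0, and under 10 CPM so did named loci of the same abundance. The log2 fold change was below 0 for 1477 (61.5%) of the 2401 unnamed loci and had a median of −0.13, against 0.01 over named loci and −0.00 over all loci tested. By mean level the medians of unnamed and named loci were −0.16 and −0.14 under 1 CPM, −0.12 and −0.15 at 1 to 2 CPM, −0.15 and −0.13 at 2 to 5 CPM and −0.14 and −0.07 at 5 to 10 CPM. At 10 to 50 CPM they were −0.06 and 0.01, and from 50 CPM −0.03 and 0.08, the last over 30 unnamed loci. The medians of the unnamed loci in the separate libraries, after each locus was centred, were −0.13, 0.02, 0.04 and −0.03 in CF and 0.07, 0.15, 0.12 and −0.04 in WT. WT library 3 lay among the CF libraries and CF library 0 was lowest. Without CF library 0 the median log2 fold change was −0.08, over 1.5 times nearer to 0.

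**Figure D4:**
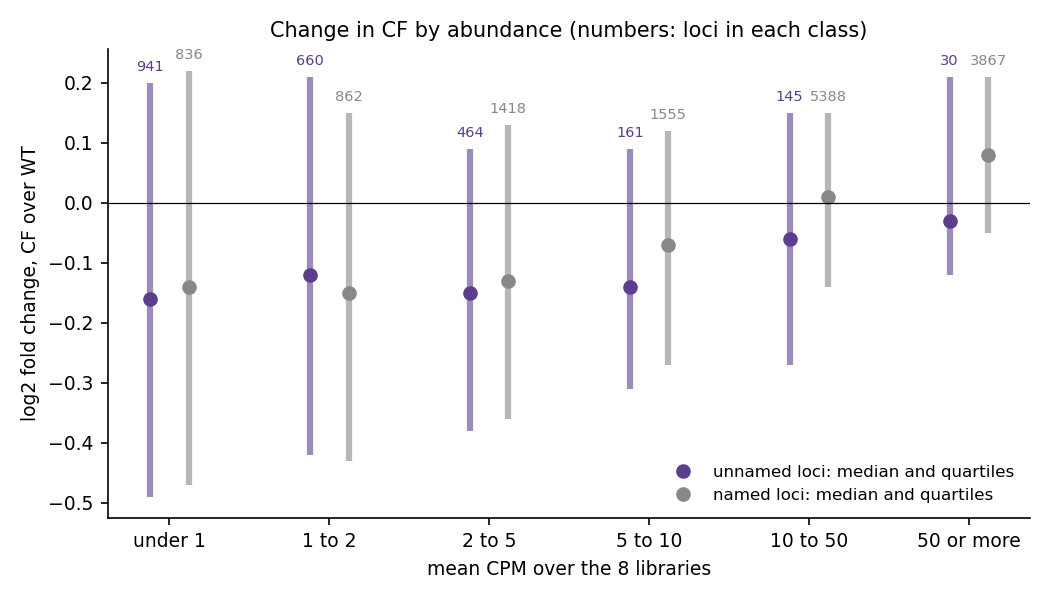
Median log2 fold change, CF over WT, with its quartiles (y axis), by mean CPM over the 8 libraries (x axis), for unnamed loci in purple and named loci in grey, with the number of loci above each bar. Under 5 CPM the medians of both kinds lie between −0.16 and −0.12, and from 50 CPM they are −0.03 and 0.08.

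Around Cftr itself, within 30 Mb on chromosome 4, 38 unnamed loci were tested. An unadjusted p under 0.05 was found for 8 of them (21.1%). The share was 11.2% of unnamed loci elsewhere, 19.4% of all 248 loci tested in the window and 15.1% of all loci tested. The groups did not overlap for 3 higher and 2 lower ones (13.2%), against 10.9% of all loci in the window, 6.69% of unnamed loci elsewhere and 8.77% of all loci tested, and only XLOC_033648, described above, passed the adjusted test. Those higher were XLOC_033642 and XLOC_033640, 98 and 5426 bases from Chmp4bl1, and XLOC_035795, 24292 bases from the histone demethylase gene Kdm7a. All 3 lie in the same stretch between Kdm7a and Chmp4bl1, so they are not shown to be separate observations. Log2 fold changes of these genes were 0.40 (SE 0.12) for Kdm7a and 0.26 (SE 0.14) for Chmp4bl1. XLOC_033642 was at 1.74, 2.82, 2.29 and 4.54 CPM in CF and at 1.10, 1.25, 1.40 and 1.16 CPM in WT (log2 fold change 1.20, SE 0.31, adjusted p 0.134). The values of the others were 1.49 (SE 0.46) for XLOC_033640, 0.80 (SE 0.27) for XLOC_035795 and −0.80 (SE 0.26) for XLOC_035624, the second lower one. This window was chosen because earlier results of these data had calls there, so its counts are a description.

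The 3 unnamed loci with the highest FPKM in the window did not pass the test. XLOC_035806 (chr4:69108716-69110325), 909 bases from Mgam, the brush border maltase-glucoamylase, averaged 60.2 ± 11.4 CPM in the CF libraries and 71.6 ± 7.38 CPM in those of WT (log2 fold change −0.25, SE 0.14), beside −0.15 (SE 0.23) for Mgam. XLOC_035631, 13980 bases from Pdk4, an inhibitor of pyruvate dehydrogenase, was at 5.54 ± 1.88 and 7.46 ± 1.05 CPM. XLOC_035625, 2608 bases from Tfpi2, was at 3.89 ± 2.74 and 6.68 ± 1.19 CPM. Their adjusted p-values were 0.428, 0.418 and 0.458.

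A set of 19 unnamed loci was high in 2 libraries that belong to different groups. In each of them CF library 2 and WT library 2 were both more than 3-fold above every other library. Of the 16 pairs of 1 CF and 1 WT library, this pair gave 19 such loci (0.766% of the unnamed loci) and 3 named loci (0.0215%). The only other pair with an unnamed locus was CF library 3 with WT library 3, with 1. The labels say nothing of what libraries with the same number share.

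All 19 of these loci shared their span with another locus that had more fragments, 15 with a named one and 4 with unnamed ones only, and all 19 had fractional counts, which arise where fragments are divided between overlapping transcripts. XLOC_010308, in a span with Lpp, a protein of cell adhesion sites, was at 6.90, 6.04, 43.5 and 10.2 CPM in CF and at 6.49, 5.01, 52.0 and 6.77 CPM in WT. XLOC_049267, in a span with unnamed loci only, was at 1.06, 0, 18.5 and 0.348 CPM against 0, 0.870, 20.7 and 0.269 CPM. XLOC_039937, in a span with Fosl2, which encodes a partner of Jun in AP-1, was at 3.10, 3.93, 28.4 and 7.31 CPM against 3.39, 6.34, 30.5 and 3.59 CPM. Between 65.5% and 93.9% of each locus' CPM came from the 2 libraries.

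The other locus with the most fragments in each span had 11.4 to 36.7 times the CPM, not corrected for length, and varied by at most 3.75-fold over the libraries. Lpp had a mean of 253 CPM and varied 1.66-fold, and Fosl2 had 123 CPM and varied 1.98-fold. Other named partners were Clec16a, Epc1 (in 1 locus with AABR07028106.1), Ptpn14, Hmbox1, Prkacb, Lmbrd2, Arid5b, Tcp11l1, Dcaf17, Tp53inp1, Dnajc25, Ubxn2a and Bmpr2. Over all unnamed loci that share a span with a named locus, the mean log2 CPM after centring was 0.20 in CF library 2 and 0.30 in WT library 2, and −0.34 to 0.07 in the others. Over loci alone in their span, none of them among the 19, it was 0.02 and 0.09 in these libraries. The 15 loci with a named partner, chosen for high values in these libraries, belong to the first set and raise its means there. The 19 loci were chosen for 1 high library in each group, so CF and WT were not compared for them, and the cause of the pattern was not tested. Without both libraries 1 unnamed locus passed the adjusted test, XLOC_033648.

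**Figure D5:**
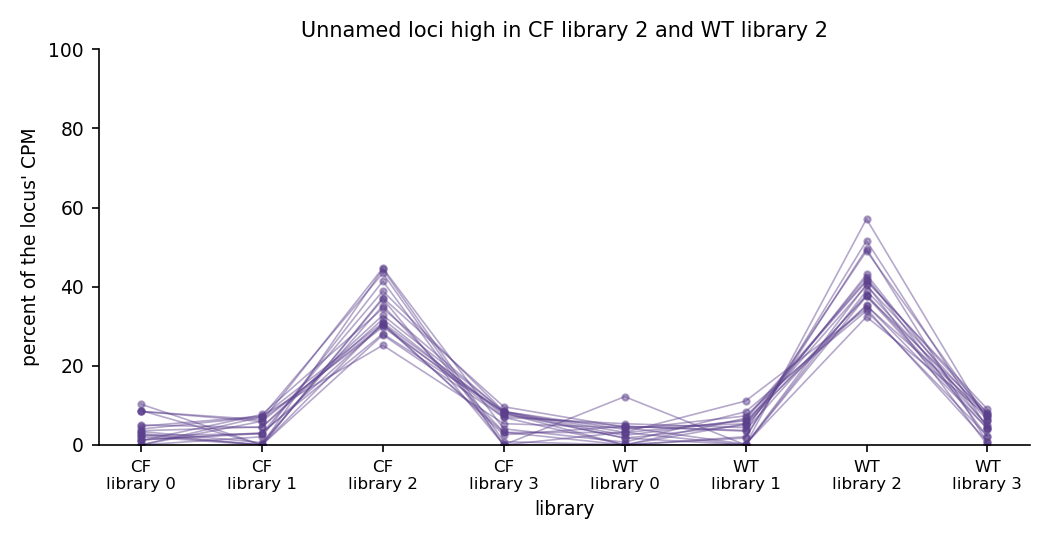
Percent of each locus' summed CPM (y axis) found in each of the 8 libraries (x axis), 1 line for each of the 19 unnamed loci. CF library 2 and WT library 2 together hold 65.5% to 93.9% of every line.

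Single loci were high or low in libraries of both groups. XLOC_003988 (chr1:221151821-221158785), 22176 bases from Ltbp3, a protein that binds latent TGF-beta, was at 85.7, 82.8, 69.2 and 326 CPM in CF and at 91.6, 87.5, 92.8 and 333 CPM in WT. It was alone in its span, and library 3 of both groups stood above the rest. XLOC_006408 and XLOC_007644, neighbours on chromosome 10 at 21566 and 13180 bases from Tnfrsf17, were present in some libraries only. XLOC_007644 (chr10:4271048-4275736) was at 0, 5.70, 3.78 and 4.04 CPM in CF and at 0.0609, 4.42, 4.05 and 0.0683 CPM in WT, and XLOC_006408 was low and high in the same libraries. Every library had either at most 3 fragments or at least 30 for these 2 unnamed loci and for 2 named loci, with at least 2 libraries of each kind. All 3 were picked with their values in view.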

How the data were processed

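Stranded mRNA libraries of small intestine were analysed, 4 labelled CF and 4 labelled WT. Per the submitters' processing notes, the tools were STAR 2.3.1z, StringTie, Cuffdiff, cutadapt and bcl2fastq, with build Rnor_6.0. How they were run is not given in the sources used here. Estimated counts were deposited by the authors as unscaled fragments of each locus in each library, per the file headers. A fraction was present in 5.99% of them, and these were rounded before testing. FPKM were computed by the authors in Cuffdiff, scaled between libraries and divided by length, per the file headers. The table has 2 more per-library columns, not used here.

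Unnamed loci were chosen by the count rule of the report. All loci were filtered with edgeR's filterByExpr (minimum count 10, minimum total 15), which kept 16941, scaled by TMM and tested with edgeR's robust quasi-likelihood test and Benjamini-Hochberg adjustment at 0.05. The SE is the log2 fold change over the square root of the F statistic. CPM use the scaled library sizes, and log2 CPM a prior count of 2. Distance is the gap between locus spans, 1-based, and is 0 where they overlap. Gene order and miRNA sequences came from RefSeq (GRCr8). On simulated counts at 16582 loci for CF against WT the test recovered 20.83% of 1.5-fold, 71.43% of 2-fold, 91.84% of 4-fold and 98% of 8-fold changes, and called 9 of 16386 unchanged loci. The changed loci were drawn at random from all tested loci, named and unnamed.

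The named loci followed a rule that gave 37: loci past the test, the 6 highest by FPKM and 4 by CPM, the 6 highest and 6 lowest log2 fold changes among uncalled loci (mean of at least 1 CPM, groups not overlapping, unadjusted p under 0.05), the 3 widest, 3 farthest and 3 most variable, and the 3 with the highest FPKM within 30 Mb of Cftr. Some loci that this rule gave are not reported here. A further 43 loci were taken for a shared span, a miRNA neighbour, a place near Cftr, a high level, or after their values were seen. Members, marker lists and tests were chosen with earlier results of these data known. Numbers of libraries in the table (0 to 3) and of titles differ, and no result uses a tie between them. Alternatives changed the scaling, filter, test, unit, design, threshold and libraries. Analyses ran in Python 3.11.15 (pandas 2.3.3, matplotlib 3.10.9) and R 4.3.3 (DESeq2 1.42.0, limma 3.58.1, edgeR 4.0.16).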

Additional observations from a re-analysis of the deposited data

Results flagged for a closer look

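In 78 groups of 4 libraries, for the loci named by rule and for summary values, 13 had a library far from the other 3 by Dixon's criterion, which chance alone gives in about 1 of 20 groups. That rate does not hold here as a comparison: several loci share a span, and XLOC_049267, XLOC_030081 and XLOC_025402, with 4 of the 13, were chosen for their large spread within groups.

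The locus XLOC_010308 was at 43.5 CPM in CF library 2 and at 52.0 CPM in WT library 2, against 5.01 to 10.2 CPM in the others. XLOC_049267 was at 18.5 CPM in CF library 2 and 20.7 CPM in WT library 2, XLOC_030081 at 14.8 CPM in WT library 2 and XLOC_025402 at 9.52 CPM in CF library 2. These 4 belong to the 19 loci that were high in both libraries numbered 2.

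CF library 3 stood above the other CF libraries in XLOC_015195 (43.2 CPM against 11.0 to 16), XLOC_015196 (22.5 CPM against 5.85 to 7.43) and XLOC_015832 (7.93 CPM against 1.65 to 2.46), which share 1 span. In XLOC_020590 WT library 3 was the high one (33.1 CPM, where the rest of WT had 17.6 to 19.7). CF library 1 stood above the other CF libraries in XLOC_013838 (21.4 CPM against 15.8 to 16.6), and WT library 1 below the other WT libraries in XLOC_041681 (2.66 CPM against 3.59 to 3.77). The share of fragments in unnamed loci was 1.04% in WT library 3, below the 1.15% to 1.17% of the others in its group.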

How the results depend on the processing

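The main test called 1 unnamed locus higher and 3 lower in CF. The counts higher and lower were 22 and 18 with DESeq2, 20 and 15 with no filter on low counts, 0 and 1 with library totals only, 1 and 1 without robust moderation, and 7 and 7 at an adjusted p threshold of 0.1. With libraries left out singly they ran from 0 to 3 and from 0 to 3, and none was called without WT library 1, 2 or 3. With CF library 2 and WT library 2 both left out, a choice made after the data were seen, they were 0 and 1. The log2 fold changes of the 4 called loci kept their direction under 20 alternatives. XLOC_033648 lost its call under 6 of these, XLOC_025009 under 10, XLOC_021157 under 11 and XLOC_028846 under 13. On log2(FPKM + 1) with limma 1 unnamed locus was called higher and 2 lower. XLOC_021157 kept its call there (adjusted p 0.0463), and the values of the others were 0.201 for XLOC_033648, 0.331 for XLOC_025009 and 0.319 for XLOC_028846. The median log2 fold change of the unnamed loci was −0.21 with library totals only and −0.05 on log2(FPKM + 1), a scale that compresses low values, against −0.13, and −0.16 to −0.08 with single libraries left out. Counting only loci outside MT, X and Y as the total gave shares of 1.24% in CF and 1.37% in WT. With expressed named loci only, the median distance was 3464 bases. The causes of these differences were not tested.

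With the library number as a replicate block, 0 unnamed loci were called higher and 0 lower. The block rests on numbers that the labels do not tie to a litter or batch. Deviations of libraries with the same number correlated at 0.07, −0.11, 0.16 and −0.01 for numbers 0 to 3, so not every number pairs its libraries and the block was not used in the main test. Number 2 had the highest of these 4 values and is the pair with the 19 shared loci. Libraries with different numbers reached a higher value, 0.19 for CF library 1 with WT library 3.

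At 41.2% of the unnamed loci the mean was under 1 CPM. Over the 941 of these that were tested the within-group SD of log2 CPM had a median of 0.529, against 0.266 from 50 CPM. Changes of 1.5-fold were mostly missed in simulated counts (20.83% recovered). The changed loci there were drawn from all tested loci, named and unnamed, so recovery at weak unnamed loci was not measured.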

Other observations

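The 2481 loci were spread over all numbered chromosomes, from 68 on chromosome 11 to 290 on chromosome 1. Near the gene of the mitotic spindle protein Nusap1, XLOC_030209 (chr3:111397032-111410714, 1861 bases away) was at 112 ± 9.46 CPM in CF against 137 ± 9.80 CPM in WT, so that the log2 fold change was −0.29 (SE 0.10, adjusted p 0.231 by edgeR's quasi-likelihood test), and Nusap1 had −0.29 (SE 0.10). XLOC_001061 and XLOC_003299, which share a span (chr1:148443366-148459847) 8 bases from Vbp1, a subunit of the prefoldin chaperone, were at 93.9 ± 31.5 and 94.0 ± 24.6 CPM in CF and at 71.0 ± 7.19 and 76.1 ± 12.2 CPM in WT (SD, n = 4). The groups overlapped in both, in XLOC_001061 through CF library 0 at 51.5 CPM, and Vbp1 had a log2 fold change of 0.47 (SE 0.11). XLOC_023620 (chr19:41665808-41672608), 2747 bases from the tyrosine aminotransferase gene Tat, was at 181 ± 55.8 CPM in CF against 155 ± 23.4 CPM in WT. Tat itself was at 0.0764 and 0.0171 CPM. These loci were chosen for their level or after their values were seen.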
